A study of Mus musculus with 6 samples.

Results

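The nuclear genes for the proteins of the mitochondrial ribosome were followed in calf muscle of mice that overexpress integrin alpha7, a subunit of a receptor that ties muscle fibres to laminin. The members are the genes with a symbol of the form Mrpl or Mrps and a number, taken from probe sets that carry a single gene symbol. The rule found 76 genes among 18193 named on the array, measured by 156 of its 45037 probe sets. Of these, 47 are named for the large subunit and 29 for the small one. The brightest probe set by mean signal over the 6 arrays stands for each gene, and for all 76 it passed the filter on dim probe sets described with its first use. Probe sets shared by several symbols were left out, which removes Mrpl30 and Mrpl53.

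The tissue was the gastrocnemius and soleus muscle of female mice aged 5 weeks, not fasted and in the basal state, on an SJ6/C57BL6 background. The groups were wild type controls and integrin alpha7 transgenic mice, 3 arrays each, and RNA of 6 animals was pooled for every array, which makes 18 animals per genotype. For the transgene, neither its promoter nor the part of the gene it carries is given in the sources used here. The titles of the control arrays also hold the word Intronic, which is not explained there. The signal of Itga7 itself was 254, 308 and 313 on the wild type arrays and 2498, 2144 and 2072 on the transgenic arrays, without overlap and 7.32-fold apart on the scale used for all genes here. The muscle label was borne out by 12 of 12 fibre markers, among them Ckm, Acta1 and Myh4, which passed the filter, with a summed signal of 214167 to 218265 on the wild type and 196416 to 204989 on the transgenic arrays. The part of this lower sum in the results was not tested. In whole muscle, fewer cells of a type and less RNA per cell cannot be told apart. The highest signal on an array, control probe sets included, was 23547 to 23952 in wild type and 21386 to 22469 in transgenic muscle. Whether the scaling of the arrays had a part in the lower sum was not tested.

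Mitochondria carry their own ribosomes, which translate the few messages of mitochondrial DNA into core subunits of the respiratory chain and the ATP synthase. The ribosomal RNAs come from mitochondrial DNA, while every protein of both subunits is encoded in the nucleus, made in the cytosol and imported. The small subunit binds the message and reads its codons, and the large subunit joins the amino acids and releases the growing chain through an exit next to the inner membrane. Some of the proteins have counterparts in bacterial ribosomes, and others are found only in mitochondria. Mitochondrial ribosomes matter in muscle fibres because contraction draws on oxidative ATP production.

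Promoter sequences of members show what their start regions have in common before the expression values are given. RefSeq windows of assembly GRCm38.p6 were found for 67 of the 76 genes, and the 250 bases before each annotated start were searched on both strands. The ETS core, CGGAAG, as bound by GABP, was present for 30 of 67 members, or 44.8%, and for 15.3% of all 27025 genes with a window. A form of the site of the nuclear respiratory factor NRF1, GCGCA and GCGC with 1 base of any kind between them, was present for 9 of 67 members, or 13.4%, and for 4.23% of all genes. TATAAA was found for 7.46% of members and 14.3% of all genes. The motifs were chosen after the sequences had been seen, and a match is a description of letters, not a bound site. Genotype differences were set side by side for members with and without an ETS core, with medians of 0.07 over 30 genes and 0.06 over 37 genes on the log2 scale. For the NRF1 form the medians were 0.10 over 9 genes with it and 0.06 over 58 without it, and for TATAAA 0.08 over 5 and 0.06 over 62. None of these differences was tested.

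The windows of 4 members are printed because Mrpl47 and Mrpl45 gave the most positive and the most negative difference of all members, and Mrpl9 and Mrpl22 were among the most positive. Mrpl55 at 0.31 and Mrps28 at 0.28 were more positive than Mrpl22 at 0.26 but are not printed. The Mrpl47 window is chr3:32736756-32737005 on the minus strand, that of Mrpl22 chr11:58171414-58171663 on the plus strand, that of Mrpl9 chr3:94443086-94443335 on the plus strand and that of Mrpl45 chr11:97315466-97315715 on the plus strand. All run 5′ to 3′ along the gene, and capitals mark matches to the ETS core or the NRF1 form on either strand.
Mrpl47: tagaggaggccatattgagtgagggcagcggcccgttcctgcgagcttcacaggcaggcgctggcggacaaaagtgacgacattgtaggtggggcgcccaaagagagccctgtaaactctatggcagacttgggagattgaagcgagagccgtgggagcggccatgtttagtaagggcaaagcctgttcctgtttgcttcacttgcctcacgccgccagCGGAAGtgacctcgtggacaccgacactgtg
Mrpl22: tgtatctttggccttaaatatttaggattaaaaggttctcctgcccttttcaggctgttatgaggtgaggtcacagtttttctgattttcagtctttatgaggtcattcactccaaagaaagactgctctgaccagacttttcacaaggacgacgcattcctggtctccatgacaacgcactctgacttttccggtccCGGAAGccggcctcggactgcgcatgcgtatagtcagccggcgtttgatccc
Mrpl9: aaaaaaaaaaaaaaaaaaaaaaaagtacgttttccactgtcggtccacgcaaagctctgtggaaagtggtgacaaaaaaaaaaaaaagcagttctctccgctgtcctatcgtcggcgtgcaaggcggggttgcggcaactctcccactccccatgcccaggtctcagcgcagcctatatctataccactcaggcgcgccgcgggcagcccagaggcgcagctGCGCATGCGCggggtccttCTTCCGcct
Mrpl45: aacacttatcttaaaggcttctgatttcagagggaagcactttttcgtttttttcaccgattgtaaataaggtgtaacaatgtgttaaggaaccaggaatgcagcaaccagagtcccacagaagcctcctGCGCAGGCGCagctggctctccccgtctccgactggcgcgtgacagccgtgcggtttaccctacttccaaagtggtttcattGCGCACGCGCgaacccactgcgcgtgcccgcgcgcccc
Mrpl47 and Mrpl22 each had 1 ETS core, and Mrpl9 had 1 match of each motif. Mrpl45, whose difference had the opposite sign, had 2 matches to the NRF1 form and none to the ETS core. The window of Mrpl46, not printed, had 0 matches to either motif. Windows picked by their differences do not show a link between motif and sign.

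Mitoribosomal transcripts differed little between the genotypes, and most differences pointed to slightly higher levels in transgenic muscle. Values are log2(signal + 16), and a difference is the transgenic mean minus the wild type mean on that scale, which understates changes of dim genes. The median difference was 0.08 over the 47 large subunit genes and 0.05 over the 29 small subunit genes, while it was -0.00 over all 12938 genes kept. Differences were positive for 32 of 47 large and 21 of 29 small subunit genes, together 69.7% of members, whereas 49.0% of all genes kept and 47.4% of all 27022 probe sets tested were positive. The half-widths of the 95% interval had a median of 0.18 over the members, and for 73 of 76 the whole interval lay within 0.5 of no difference.

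No member passed the test. The test was limma's moderated model with Benjamini-Hochberg adjustment over all 27022 probe sets whose mean lay above the 40th percentile, at an adjusted p of 0.05, and 0.0999% of these passed as higher and 0.0222% as lower. At an unadjusted p under 0.05 the same limma fit gave 8 members higher and 1 lower of 76, beside 3.51% of all probe sets higher and 4.34% lower. Those members were read from their brightest probe sets. Over all 138 kept member probe sets the counts were 9 higher and 5 lower, so the lean to higher values was weaker there. For 13 members every transgenic array was above every wild type array, 17.1% of the 76, where 5.85% of all probe sets were of this kind. For 4 members, or 5.26%, every transgenic array was below, against 7.5% of all probe sets. Over genes rather than probe sets, these shares were 6.67% higher and 7.57% lower. Fewer arrays raise such counts for all genes. Without wild type replicate 3 there were 29 higher members, or 38.2%, against 11.9% of all genes, and without transgenic replicate 2 there were 21, or 27.6%, against 11.9%. The lower members numbered 7 without wild type replicate 1, or 9.21% against 12.7% of all genes, and 1 with equal array medians, or 1.32% against 4.16%.

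**Figure D1:**
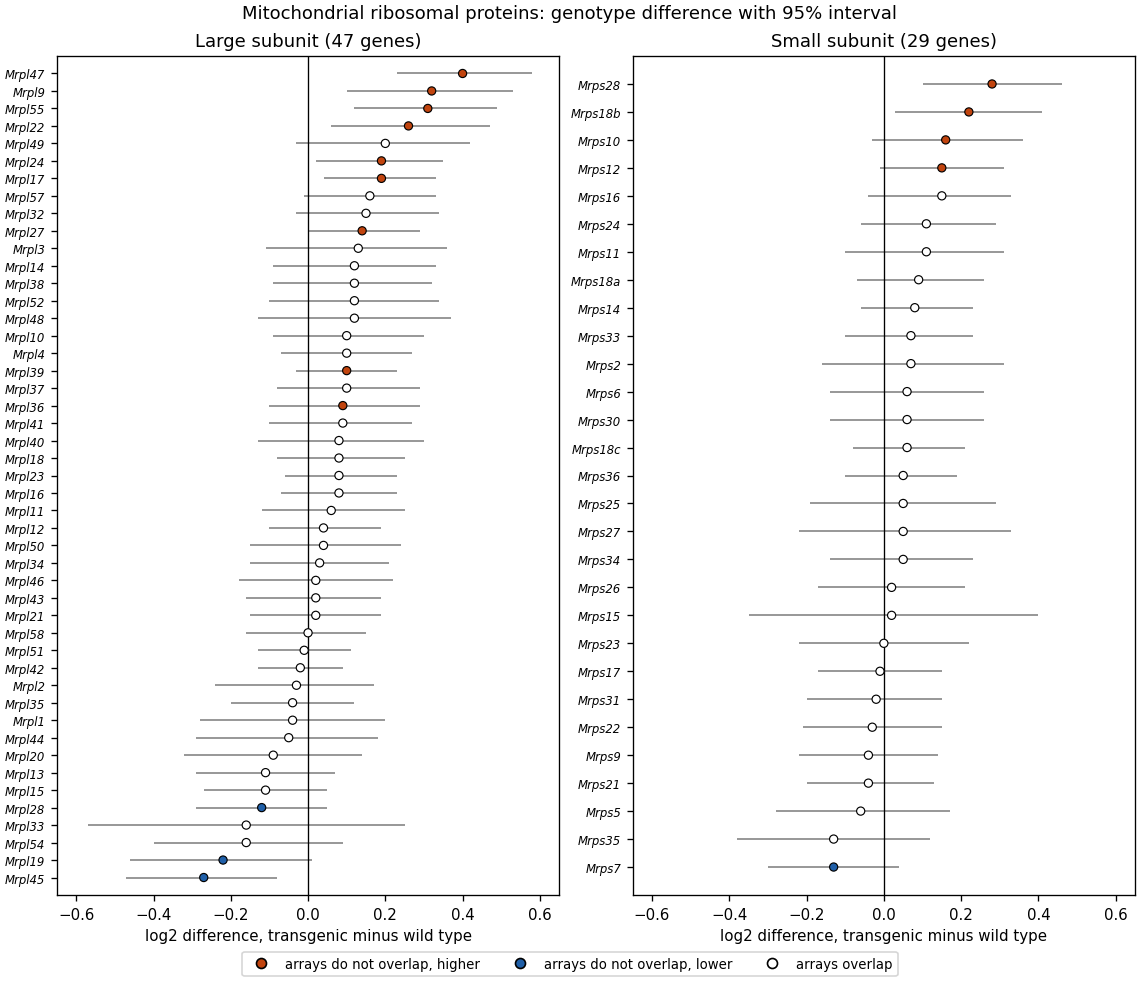
Genotype difference of each of the 76 genes, as log2 transgenic minus wild type (points) with its 95% interval from limma (lines), ordered within the large and the small subunit. Filled points mark the 13 higher and 4 lower members whose arrays did not overlap, and Mrpl47 at 0.40 and Mrpl45 at -0.27 are the ends of the large subunit.

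The shift was not even across the arrays. Each gene was set relative to its own mean over the 6 arrays, and the large subunit median was then -0.05, -0.08 and 0.03 on wild type replicates 1 to 3 and 0.03, 0.02 and 0.06 on transgenic replicates 1 to 3. For the small subunit the medians were -0.07, -0.03 and 0.03 in wild type and 0.01, 0.00 and 0.05 in transgenic muscle. Wild type replicates 1 and 2 were thus the low arrays, and wild type replicate 3 lay among the transgenic ones, so that the groups overlapped for both subunits. Wild type replicates 1 and 2 held the lowest value for 21 and 26 of the 76 members, and transgenic replicate 3 held the highest value for 28. The median over all genes kept was between -0.00 and 0.01 on every array.

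**Figure D2:**
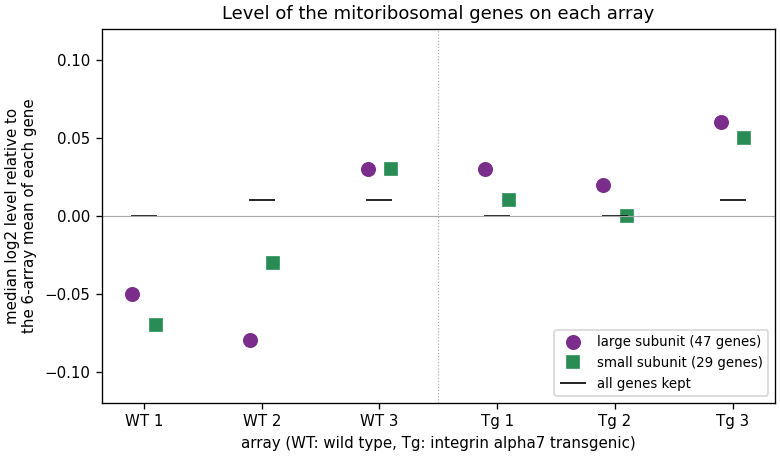
Median level of the large (circles) and small (squares) subunit genes on each array, in log2 units relative to each gene's mean over the 6 arrays, with the median of all genes kept (dashes). Wild type arrays 1 and 2 lie lowest for both subunits, and wild type array 3, at 0.03 for both, lies within the range of the transgenic arrays.

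The subunits were not separated by these data. The large subunit median exceeded the small one by 0.03, and this difference of medians was 0.02, -0.05 and 0.01 on the wild type and 0.02, 0.01 and 0.02 on the transgenic arrays. Leaving out wild type replicate 2 turned it to -0.02, and leaving out transgenic replicate 2 turned it to -0.00. Rounds of hybridisation were inferred from the hour alone in the run information. Replicates 1 and 2 of each genotype formed the first round and replicate 3 of each the second. Within the first round the medians were 0.09 for the large and 0.05 for the small subunit, and within the second, with a single array a genotype, 0.02 and 0.08, so that their order turned. The large subunit median was also 0.03 without wild type replicate 2. Counting Mrps18a and Mrps30, which sit in the large subunit of the mammalian ribosome despite their names, as large and leaving out Mrps36, now assigned to the oxoglutarate dehydrogenase complex, changed the difference of medians by less than its spread between arrays.

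Proteins around the exit for the growing chain included the most positive and the most negative member, while Mrpl9, Mrpl55 and Mrps28, which are not at this site, came next in size after Mrpl47. This site, grouped from textbook knowledge after the values had been seen, was represented by Mrpl17, Mrpl22, Mrpl23, Mrpl24, Mrpl45 and Mrpl47. Mrpl47, a protein at the rim of the exit, had signals of 755, 679 and 784 in wild type and 943, 1015 and 987 in transgenic muscle. Every transgenic array lay above every wild type array, the log2 difference was 0.40 ± 0.08 (SE, n = 3 arrays a genotype), or 1.32-fold, and the adjusted p in limma was 0.123. Its adjusted p ran from 0.024 to 0.804 over the alternatives. The low end came from a random block for the fluidics module, where each module held a single genotype.

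Mrpl22, which lines the exit tunnel, gave 731, 855 and 942 in wild type and 1014, 1040 and 971 in transgenic muscle, again without overlap. Its log2 difference was 0.26 ± 0.09 (SE), and its adjusted p was 0.524 in limma. Mrpl17 varied little within each genotype, with a log2 SD of 0.04 in wild type and 0.02 in transgenic muscle. Its signals were 1084, 1129 and 1066 against 1257, 1231 and 1251, and its log2 difference was 0.19 ± 0.07 (adjusted p in limma 0.515). Mrpl24 gave 981, 939 and 1078 against 1169, 1109 and 1141, and Mrpl23 1890, 1940 and 1938 against 1935, 2016 and 2170, where the groups overlapped. Mrpl45, which anchors the ribosome to the inner membrane, went the other way, with 742, 611 and 709 in wild type and 560, 558 and 575 in transgenic muscle. All its transgenic arrays lay below the wild type ones, and the log2 difference was -0.27 ± 0.09, or 0.828-fold, with an adjusted p of 0.45 in limma.

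**Figure D3:**
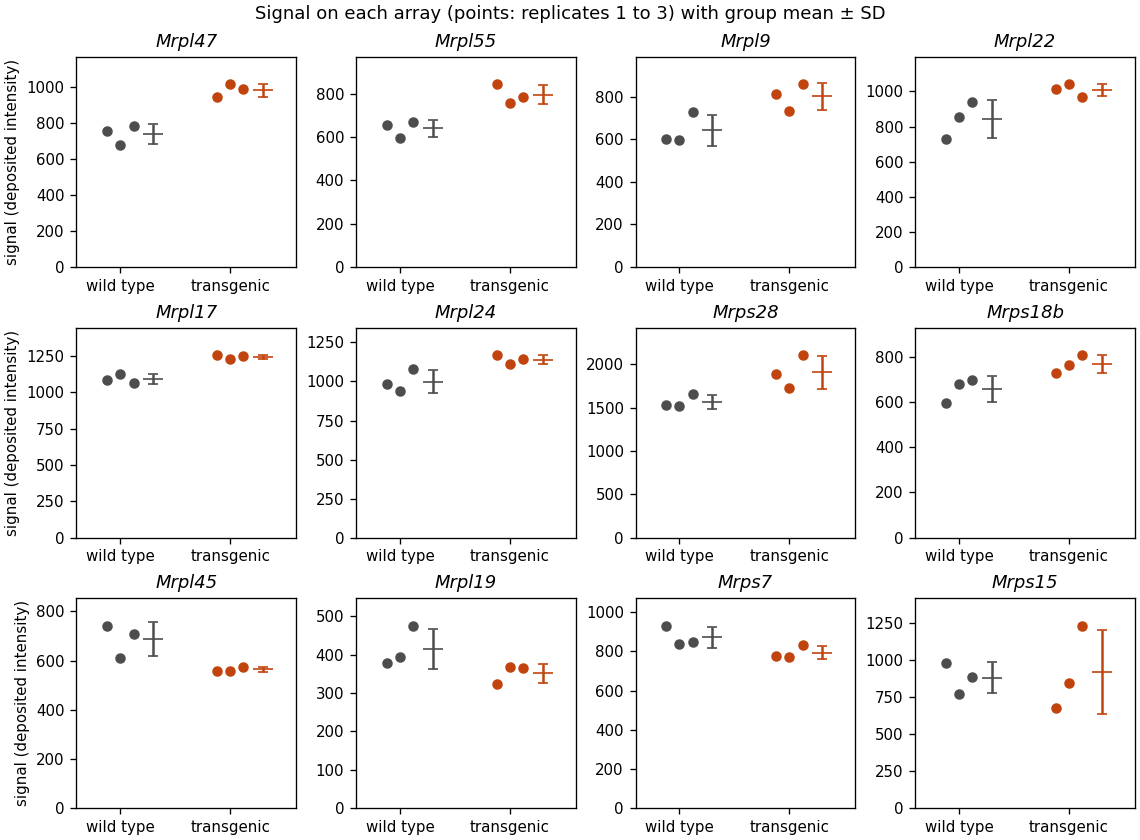
Deposited signal of 12 members on each array (points, replicates 1 to 3 from left to right) with the group mean ± SD at the side, on linear axes that start at 0. Mrpl47, Mrpl55, Mrpl9, Mrpl22, Mrpl17, Mrpl24, Mrps28 and Mrps18b lie higher on every transgenic array, Mrpl45, Mrpl19 and Mrps7 lie lower, and Mrps15 is spread widely among the transgenic arrays.

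Beyond the exit, 4 more large subunit genes with bacterial counterparts were higher on every transgenic array. Mrpl55 had signals of 655, 596 and 668 in wild type and 843, 757 and 783 in transgenic muscle. Its groups were clearly apart on the array scale, by 0.31 ± 0.08 on the log2 scale, and limma gave a p of 0.00329 before and 0.316 after adjustment. Mrpl9, a protein near the base of the L1 stalk, gave 603, 597 and 728 against 814, 735 and 859, a log2 difference of 0.32 ± 0.10 and an adjusted p of 0.415 in limma. Its lowest transgenic array, 735, stood only just above its highest wild type array, 728. Mrpl27, next to the peptidyl transferase centre, gave 1699, 1722 and 1777 against 2036, 1794 and 1930, and Mrpl36 gave 338, 346 and 350 against 368, 361 and 377. Neither of these groups overlapped, but the unadjusted p was 0.0538 for Mrpl27 and 0.314 for Mrpl36. Of 29 large subunit genes with a bacterial counterpart, 8 did not overlap on the higher side and 2 on the lower side, with a median of 0.08. The 18 found only in mitochondria had a median of 0.06 and 1 gene on each side, Mrpl39 at 0.10 and Mrpl45. Over all genes kept the shares were 6.67% higher and 7.57% lower. With 1 array left out the higher genes numbered 8 to 14 and 1 to 6 in these groups, the upper ends without wild type replicate 3. These were 27.6% to 48.3% and 5.56% to 33.3%, against 11.3% to 11.9% of all genes. With equal array medians they numbered 8 and 4, or 27.6% and 22.2%, against 9.96% of all genes. The difference between the groups was not tested.

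Among the proteins of further functional sites the values were small. In the stalk that recruits translation factors, Mrpl10, Mrpl11 and Mrpl12 had log2 differences of 0.10, 0.06 and 0.04. In the central protuberance, which contacts the small subunit, Mrpl18, Mrpl38, Mrpl40, Mrpl46 and Mrpl48 all lay between 0.02 and 0.12. Around the peptidyl transferase centre Mrpl2, Mrpl3, Mrpl16 and Mrpl27 had a median of 0.10. Mrpl58, a peptidyl-tRNA hydrolase built into the large subunit, gave 1006, 986 and 1046 in wild type and 1027, 1039 and 965 in transgenic muscle. Its log2 difference was -0.00, with a 95% interval of -0.16 to 0.15. Mrpl12, often studied for its link to mitochondrial transcription, had an interval of -0.10 to 0.19.

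Lower values in the large subunit were fewer. Mrpl19 gave 378, 393 and 475 in wild type and 323, 367 and 365 in transgenic muscle, and Mrpl28 gave 787, 782 and 843 against 731, 777 and 703. The groups did not overlap for either gene, at log2 differences of -0.22 and -0.12, and the adjusted p in limma was 0.664 and 0.749. Mrpl15 at -0.11 and Mrpl54 at -0.16 had overlapping arrays. Mrpl33 was the least precise of the 76 members, with 929, 1401 and 1115 in wild type and 1060, 1319 and 736 in transgenic muscle, and the interval of its difference reached from -0.57 to 0.25.

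In the small subunit the largest difference was that of Mrps28, one of the proteins with a bacterial counterpart. It had signals of 1526, 1514 and 1660 in wild type and 1892, 1722 and 2107 in transgenic muscle. The arrays did not overlap, and the log2 difference was 0.28 ± 0.08, or 1.21-fold, and limma gave a p of 0.00549 before and 0.378 after adjustment. Mrps18b, one of the paralogues that descend from a single bacterial protein, gave 593, 681 and 697 against 728, 762 and 807, a log2 difference of 0.22 ± 0.09 and an adjusted p of 0.576 in limma. Its paralogues Mrps18a and Mrps18c had log2 differences of 0.09 and 0.06 with overlapping arrays, and the differences among the paralogues were not tested. Mrps12, a protein of the decoding centre, gave 733, 690 and 717 against 782, 781 and 812, and Mrps10 gave 508, 490 and 573 against 575, 583 and 606. Both were without overlap, at log2 differences of 0.15 and 0.16 with an adjusted p of 0.678 and 0.698 in limma. Mrps16, with 1296, 1291 and 1445 against 1420, 1392 and 1660, overlapped.

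Negative values of the small subunit stayed near 0. Mrps7, which helps to organise the head of the subunit, gave 931, 837 and 846 in wild type and 775, 772 and 832 in transgenic muscle. It was the only small subunit gene of the 29 whose transgenic arrays were all lower, by -0.13 on the log2 scale (adjusted p in limma 0.73). Mrps35 at -0.13, Mrps5 at -0.06, Mrps9 at -0.04 and Mrps21 at -0.04 overlapped, and the signs of Mrps5, Mrps9 and Mrps21 turned under at least 1 alternative. Mrps15 had the widest interval of the small subunit, -0.35 to 0.40, and its brightest probe set gave 978, 771 and 885 in wild type and 677, 841 and 1229 in transgenic muscle. A dimmer probe set of Mrps15 gave 798, 895 and 854 on the transgenic arrays, without that spread. On transgenic replicate 3, Mrps15 and Mrpl48, at 1555 against 1258 and 1060, were the high values of their group and Mrpl33 the low one, and this array had the lowest of the 6 array weights in limma, 0.59.

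Several members were measured by more than 1 probe set, and these did not always go together. Of the 156 probe sets 138 passed the filter, 36 genes had more than 1 of them, and for 16 genes they had both signs. For Mrpl47 a dim second probe set gave 71.2, 96.2 and 88.3 in wild type and 63.5, 34.6 and 50.3 in transgenic muscle. This is -0.65 on the log2 scale, with an unadjusted p of 0.00846 and the sign opposite to the bright one. Another one, below the filter, gave 10.7, 19.5 and 15.5 against 1.3, 2.8 and 1.7. The transgenic arrays were thus higher on the bright probe set and lower on both dim ones, and which part of the transcript each one reads was not analysed here. Averaged over its kept probe sets, the log2 difference of Mrpl47 was -0.12.

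Mrps14 was split in a similar way. Its bright probe set gave 1708, 1867 and 1712 in wild type and 1849, 1850 and 1905 in transgenic muscle, while a dimmer one gave 294, 215 and 247 against 133, 259 and 135, a log2 difference of -0.54. In the dimmer one transgenic replicate 2 lay among the wild type arrays. For Mrpl3, an essential protein near the peptidyl transferase centre, the probe sets gave log2 differences of 0.13, 0.00, -0.42 and 0.05 from the brightest to the dimmest. Mrpl17 gave 0.19 on the bright probe set and -0.08 and -0.13 on dim ones that lay between 33.2 and 64.7 in signal. For Mrpl9 all 3 went one way, at 0.32, 0.20 and 0.24, and the dimmest of these had an unadjusted p of 0.0246. Mrpl19 was likewise negative on all 3 kept ones, at -0.22, -0.03 and -0.35.

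**Figure D4:**
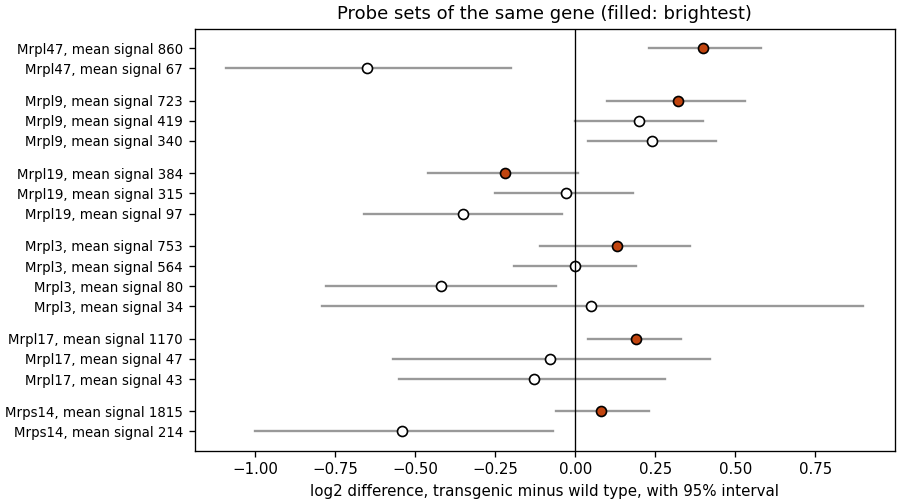
Log2 difference, transgenic minus wild type, with its 95% interval for every kept probe set of 6 members, ordered by mean signal within a gene (filled points mark the brightest). The probe sets of Mrpl9 are all positive, while those of Mrpl47, at 0.40 and -0.65, and of Mrps14, at 0.08 and -0.54, have opposite signs.

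Proteins of the mitochondrial ribosome that carry other symbols had values in the range of the members. Of 4 measured, Gadd45gip1 gave 547, 566 and 609 in wild type and 659, 634 and 625 in transgenic muscle, and Ptcd3, which guides messages into the small subunit, gave 731, 777 and 757 against 815, 786 and 853. Both were without overlap, at log2 differences of 0.15 and 0.11. Chchd1 had 0.06 and the GTP-binding protein Dap3 -0.08, with overlapping arrays. The shared probe set of Gm6238 and Mrpl30 gave 3271.4, 3467.3 and 3211.4 against 3654.4, 3484.1 and 3577.0, and that of Ccdc142 and Mrpl53 gave 1438.8, 1637.3 and 1597.3 against 1640.0, 1617.2 and 1658.4.

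Genes that assist the ribosome were measured for comparison. The 11 translation factors kept had a median log2 difference of -0.01, with 4 positive and 7 negative. With equal array medians 9 were positive and 2 negative, at a median of 0.04. The median over all genes kept was 0.05 there, and 61.1% of all genes were positive. The 11 factors included the initiation factor Mtif3 at -0.29, the release factor Mtrf1l at 0.27 and the elongation factor Gfm1 at -0.11. The formyltransferase Mtfmt was at 0.18, and 0 of the 11 had groups without overlap under the deposited scaling. Assembly and ribosomal RNA factors, 31 genes, had a median of 0.03, with 4 higher and 2 lower without overlap. These were 12.9% and 6.45%, against 6.67% and 7.57% of all genes. The assembly GTPase Mtg2 at 0.27, Mterf3 at -0.14 and the ribosomal RNA methyltransferase Mrm3 at -0.18 were among them, and Fastkd1 at 0.25 had overlapping arrays. In the list of mitochondrial transcription genes and nuclear regulators, 15 genes, the median was 0.04. Differences were positive for 12 of them, or 80.0%, and negative for 3, against 49.0% positive of all genes kept. The smallest p values there were those of Ppargc1a, the coactivator of mitochondrial biogenesis, at -0.26, Pprc1 at -0.35, Ppargc1b at 0.16 and Yy1 at 0.10. Mitochondrial aminoacyl-tRNA synthetases, 16 genes, had a median of 0.03. Vars2, the valine enzyme, had the largest difference there, from 11.4, 24.2 and 10.9 to 34.4, 46.2 and 79.7, with an adjusted p of 0.303 in limma. Its wild type mean of 15.5 lay below the filter at 21.7, so that it was kept only through the transgenic arrays. Aars2 gave -0.26, Cars2 0.20 and Wars2 0.23. By the limma threshold 0 genes of these 4 lists passed, and at an unadjusted p under 0.05 Vars2, kept in that way, was the only one.

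Respiratory chain and ATP synthase subunits encoded in the nucleus, the partners of the proteins that mitochondrial ribosomes make, leaned the other way. Of 80 kept genes 61 had negative and 19 positive differences, and the median was -0.05. The arrays did not overlap for 22 on the lower side, or 27.5% against 7.57% of all genes. On the higher side this held for 2, or 2.5% against 6.67%. None of the 80 passed the limma threshold, and 12 were lower and 0 higher at an unadjusted p under 0.05. Examples are Uqcrc2, a core subunit of complex III, at -0.31 with an adjusted p of 0.136, Ndufa13 at -0.22, Ndufa10 at -0.26 and the dim Cox6b2 at -0.83. This lean depended on the scaling, since the split was 33 positive and 47 negative with quantile normalization and 40 and 40 with equal array medians. Likewise, after quantile normalization 8 were lower and 4 higher without overlap. These were 10% and 5%, against 6.92% and 7.06% of all genes. With equal array medians 2 were lower and 4 higher, or 2.5% and 5%, against 4.16% and 9.96% of all genes. The mitoribosomal genes were positive for 53 of 76 under the deposited scaling and quantile normalization, and for 64 of 76 with equal array medians, where the median of all genes also moved to 0.05. Their median exceeded that of the respiratory chain genes under the deposited scaling, at 0.06 against -0.05, and less so after quantile normalization, at 0.05 against -0.02. Equal array medians shift all genes of an array by the same amount. The gap between the lists could therefore not change there, at 0.11 against 0.00. The difference between the lists was not tested. Cytosolic ribosomal proteins had a median of 0.04, with 31 of 47 positive. With quantile normalization 37 were positive, or 78.7% against 69.7% of the mitoribosomal genes, at medians of 0.06 and 0.05. With equal array medians 43 were, or 91.5% against 84.2%, at medians of 0.09 and 0.11. Without wild type replicate 1 the shares were 51.1% and 67.1%. A positive lean was thus not particular to the mitoribosomal genes. Among the 47, Rps4l at 3.33-fold passed as higher with an adjusted p of 0.0488 in limma. Its wild type mean of 16.9 lay below the filter at 21.7, so that it was kept only through the transgenic arrays, and neither its fold nor its call supports anything about the list. The next by p were Rpl14 at 0.41, Rps18 at 0.13 and Rpl37 at 0.17.

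**Figure D5:**
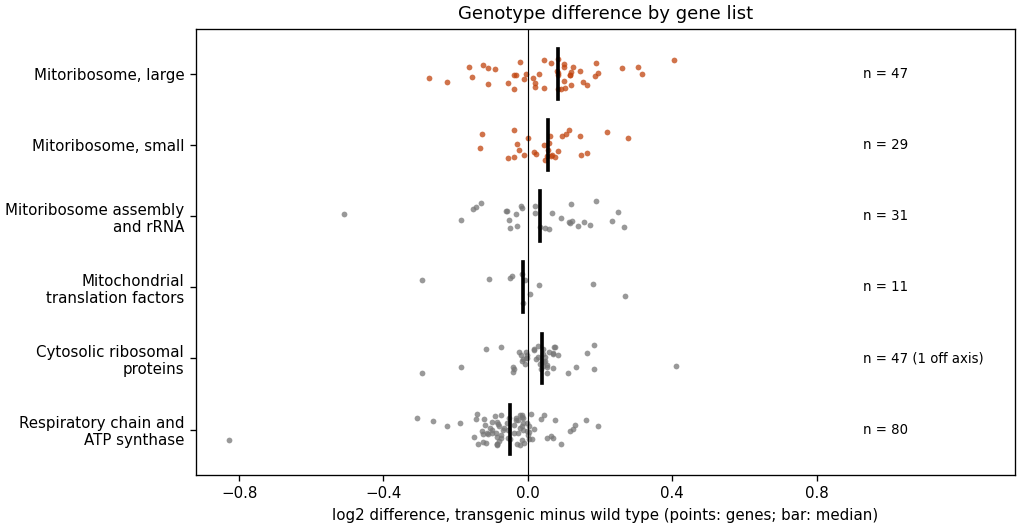
Genotype difference, log2 transgenic minus wild type, of single genes (points) with the median of each list (bars) for the mitochondrial ribosome and for lists of related genes. The medians are 0.08 for the large and 0.05 for the small subunit and -0.05 for the respiratory chain, and 1 cytosolic ribosomal gene, Rps4l, lies off the axis.

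Many members start back to back with another gene. Of the 67 with a RefSeq window, 25, or 37.3%, had a gene on the opposite strand that starts within 1000 bases upstream, compared with 12.2% of all 27025 genes with a window. Members of both subunits are joined in 1 such pair, Mrpl46 and Mrps11, at log2 differences of 0.02 and 0.11. Mrpl47 is paired with Ndufb5, a complex I subunit, which gave 7881, 8118 and 8255 in wild type and 8331, 8574 and 8095 in transgenic muscle. The log2 difference of Ndufb5 was 0.04 ± 0.05, against 0.40 for Mrpl47. Mrps12 and its neighbour Sars2, a mitochondrial synthetase, had 0.15 and 0.09, Mrpl43 and the mitochondrial helicase Twnk 0.02 and -0.09, and Mrps27 and Ptcd2 0.05 and 0.09. For Mrpl49 and Fau, which encodes a cytosolic ribosomal protein, the values were 0.20 and 0.01. In 20 pairs with both genes kept, the member was positive in 16 and the neighbour in 16, and 0 neighbours passed. Of all genes kept 49.0% were positive. Mrps11, itself a member, is counted as the neighbour of Mrpl46, and agreement of signs within the pairs was not tested. The neighbour of Mrpl55, 2610507I01Rik, had the largest difference among the neighbours, with 37, 14 and 28 in wild type and 97, 63 and 92 in transgenic muscle. Its log2 difference was 1.27 ± 0.25, and the adjusted p in limma was 0.118.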

How the data were processed

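Affymetrix Mouse430_2 arrays measured 3 pools of calf muscle RNA per genotype, grouped by the genotype labels. Per the labels, each pool is a biological replicate of its own. The authors deposited 1 intensity on a linear scale for each probe set. The submitters' processing notes name GCOS 1.1.1, and the sources used here do not give the algorithm. The values had a mean of 150.0 on every array after trimming 2% at each end. This scaling hides a shift shared by most genes. Of 45101 rows, 64 control rows were left out. The run information gave the fluidics module and the hybridisation time. Arrays that shared the hour of that time were taken as the same hybridisation round, and the date was not used.

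Probe sets were analysed as log2(signal + 16), kept if its mean exceeded the 40th percentile, near a signal of 21.7. Under R 4.3.3, limma 3.58.1 compared the genotypes two-sided, with a trend in the variance and without covariates. Symbols came from the platform annotation, updated by gene identifier to RefSeq GRCm38.p6. The update changed 0 of the 156 member symbols. The fit was tested on simulated data, with log2 changes added to kept probe sets picked at random. It recovered 12 of 50 changes of 0.5, 33 of 50 changes of 1 and 41 of 50 changes of 2, with 1 false call. Most changes of 0.5 were thus missed. Members, lists, markers and naming rule were chosen with earlier results of these data known, so no p over a list was computed. Named were the 5 members with the smallest p per direction and subunit, those without overlap, those with a probe set at an unadjusted p under 0.05 and another of opposite sign, and the 4 genes of each companion list with the smallest p. Precision is limited by the number of arrays. Alternatives were other offsets, normalizations, filters, variance models, blocks, probe set rules and leaving out each array.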

Additional observations from a re-analysis of the deposited data

How the results depend on the processing

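No member passed under 17 of the alternatives run on all arrays or with 1 left out, nor in hybridisation round 1 alone, an addition made after the data were seen. The exception was a random block for the fluidics module, where 1 member, Mrpl47, passed as higher at a log2 difference of 0.38. The modules each held 1 genotype and the correlation within them was -0.44. With equal array medians the median difference was 0.13 for the large and 0.11 for the small subunit, and 1 member was lower without overlap. In hybridisation round 1 alone 34 members were higher and 9 lower without overlap, which fewer arrays make easier (44.7% and 11.8%, against 18.1% and 21% of all genes). In round 2 alone, with single arrays, 45 were higher and 31 lower (59.2% and 40.8%, against 50.9% and 49.1% of all genes), the large subunit median was 0.02 and the large minus small difference -0.06. When 1 array was left out, the large subunit median ran from 0.03 to 0.10, the small one from 0.04 to 0.08 and their difference from -0.02 to 0.03, while 15 to 29 members were higher and 4 to 7 lower without overlap (19.7% to 38.2% and 5.26% to 9.21%, against 11.3% to 11.9% and 12.1% to 13.9% of all genes). Among named genes the sign was reversed with equal array medians for Mrps21 and Mrps9, at 0.01 each, with 1 array left out for Mrps21, which ran from -0.09 to 0.02 and was 0.02 without wild type replicate 2 and 0.00 without transgenic replicate 2, and in round 1 alone for Mrps5, at 0.05. When all kept probe sets of a gene were averaged it was reversed for Mrpl17, at -0.01, Mrpl28, at 0.04, Mrpl3, at -0.06, Mrpl47, at -0.12, Mrps14, at -0.23, and Mrps9, at 0.01. Of 494 such values 482 kept their sign and stayed short of the threshold, 11 were these reversals, and 1 was Mrpl47 under the module block. Apart from that construction, the cause was not tested.

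With the replicate number as a block 0 members passed, and Mrpl47 had an adjusted p of 0.133 in limma. Same-numbered arrays had deviations from their group means correlated at 0.00, 0.06 and 0.05, while 4 of 6 arrays correlated best with their own number. With so few arrays these values do not settle whether the numbers pair the arrays. The block gave 36 calls over all probe sets, against 33 without it.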

Other observations

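Markers of other cell types that whole muscle can hold had summed signals of 1416 to 1579 in wild type and 1240 to 1361 in transgenic muscle for endothelium, 17744 to 18608 and 17367 to 18752 for adipocytes, 8862 to 9552 and 9318 to 9887 for brown adipocytes (a list with Cox7a1 and Ppargc1a, which muscle expresses too), 32390 to 34160 and 28884 to 32876 for fibroblasts, 3588 to 3913 and 3295 to 3510 for macrophages, 4539 to 4924 and 4589 to 5118 for Schwann cells, 124 to 169 and 117 to 208 for erythroid cells (2 of 5 markers kept, Hba-a1 below the filter), and 605 to 686 and 647 to 749 for satellite cells. The endothelial and macrophage sums were lower on every transgenic array. The part of other cell types in the results was not tested.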
